A study of Mus musculus with 24 samples.

Results

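The comparison was between thymus of mice that lacked both p27 and stathmin (double knockout) and thymus of mice that lacked p27 alone (p27 knockout). All mice were C57BL/6 and 15 weeks old, and each genotype had 3 females and 3 males, with the sex of single mice unlabelled. Its members were the 6 double knockout and 6 p27 knockout samples, 12 of the 24 in the series, chosen by genotype. The other 12 were 6 wild type and 6 stathmin knockout mice, which entered here for the shared estimate of spread and for the effect of stathmin loss where p27 was present. p27 was missing from both groups, so the comparison asked what loss of stathmin changed in thymus without p27. The labels do not describe how the alleles were made or which exons were removed. Each thymus was read in the Cy5 channel of a 2-colour Agilent array against 1 pool of fibroblast RNA of all genotypes labelled with Cy3, and a log2 ratio of 0 means the level of that pool. A change below is the log2 ratio of the double knockout minus that of the p27 knockout. The number of arrays, 6 per group, limited the precision.

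Stathmin, the product of Stmn1, binds tubulin dimers and favours the shortening of microtubules, and it is abundant in dividing cells. p27, the product of Cdkn1b, inhibits cyclin-dependent kinases and holds cells out of the cycle, and mice without it are known for a large thymus. p27 is also known to bind stathmin, which ties both proteins to the cytoskeleton. The thymus is filled with developing T cells, most of them double-positive for CD4 and CD8, within a scaffold of cortical and medullary epithelium.

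The p27 knockout arrays were dimmer than those of the double knockout. Brightness, taken as the 99th percentile of the Cy5 signal of gene probes in kilo-units, was lowest 19.4, median 78.4 and highest 171 in the p27 knockout. It was lowest 200, median 233 and highest 320 in the double knockout. The groups did not overlap, and their difference had an exact permutation p of 0.00216 (two-sided), the smallest that 6 against 6 allows. Wild type ran from 56.3 to 286 and stathmin knockout from 131 to 340. Replicate 6 of the p27 knockout was the dimmest array, at 19.4, and its ratios correlated with those of the other arrays by only 0.213 on average. Replicate 5, at 50.7, correlated by 0.559, against 0.767 to 0.856 for the other 10 arrays of these groups. The 19 double-positive thymocyte markers, which check the tissue, had a median log2 ratio of 0.33 in replicate 6, 6.31 in replicate 5, 6.01 to 6.48 in the other 4 p27 knockout arrays and 5.33 to 5.96 in the double knockout. The main results are therefore given also without replicates 5 and 6, and with log2 brightness as a covariate. Of 132 genes chosen for naming 126 passed over all arrays, 81 of them also without these replicates and 45 not, and the 45 are named as such where they appear. Double knockout replicates 2 and 4 stood apart in another way, with medians of 4.62 and 4.39 over 30 sarcomere genes, against 0.22 to 0.95 in the other 4. Wild type replicate 5 (3.91), stathmin knockout replicates 5 (3.61) and 6 (3.50) and, less so, p27 knockout replicate 2 (2.09) were high as well. Since brightness separated the groups, genotype and brightness cannot be told apart over these 12 arrays. Of the spread in log2 brightness within groups, from which the covariate takes its slope, 51.4% lay in the p27 knockout, 2.77% in the double knockout, 36% in wild type and 9.81% in stathmin knockout.

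**Figure D1:**
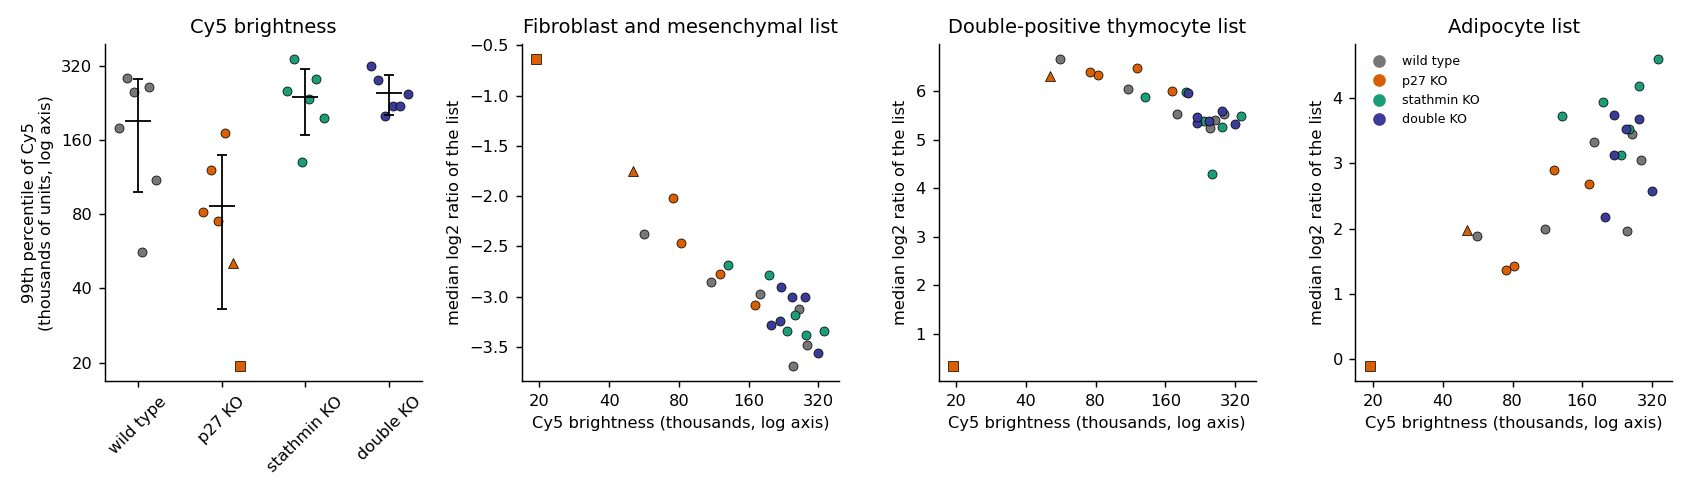
The left panel shows the 99th percentile of Cy5 on each array by genotype (log axis, bars mean and SD). The other panels set the median log2 ratio of 3 gene lists against it, with p27 knockout replicate 5 as a triangle and replicate 6 as a square. The p27 knockout arrays lay at 19.4 to 171 and the double knockout arrays at 200 to 320. The fibroblast list was highest on the dimmest array, p27 knockout replicate 6, at -0.64.

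Stmn1 was the check of the labels. Probe A_52_P319161 for Stmn1 read lowest 0.79, median 2.70 and highest 3.22 in the p27 knockout, and lowest -3.80, median -3.12 and highest -2.84 in the double knockout. The groups were far apart, with replicate 5 the lowest of the p27 knockout. The change was -5.64 ± 0.34 (SE), a 49.7-fold fall, with an adjusted p of 7.66e-10 over all probes. It was -6.08 without replicates 5 and 6 (adjusted p 2.84e-11) and -5.59 with brightness as covariate (adjusted p 9.53e-07). It fell on 6 of 6 slides. The same probe stood at 3.1 ± 0.28 in wild type and -2.95 ± 0.75 in stathmin knockout (SD, n = 6 each).

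The second Stmn1 probe, A_51_P495641, was the brighter and so stood for the gene. It read lowest -0.76, median 3.37 and highest 4.09 in the p27 knockout and lowest 1.22, median 1.81 and highest 2.87 in the double knockout. The low value was that of replicate 6, and the other 5 p27 knockout arrays, at 3.20 to 4.09, lay above the whole double knockout. Over all arrays the change was -0.93 with an adjusted p of 0.17. Without replicates 5 and 6 it was -1.70 (adjusted p 0.00408), and -1.99 (adjusted p 0.0137) when brightness was added as well. That Stmn1 fall was then the only 1 of 24784 genes past the threshold (0.00403%).

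Cdkn1b, deleted in both groups, differed by no probe past the threshold. Probe A_51_P146126 for Cdkn1b read 0.30 ± 0.57 in the p27 knockout (SD, n = 6) and -0.50 ± 0.88 in the double knockout (SD, n = 5, 1 spot left out as an outlier), and its adjusted p was 0.0787. The same probe was at 1.80 in wild type and 1.64 in stathmin knockout. The other probes say little. Probe A_51_P169173 was well above background on 1 of 6 p27 knockout and 0 of 6 double knockout arrays, and probe A_52_P673863 on 4 and 3.

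**Figure D2:**
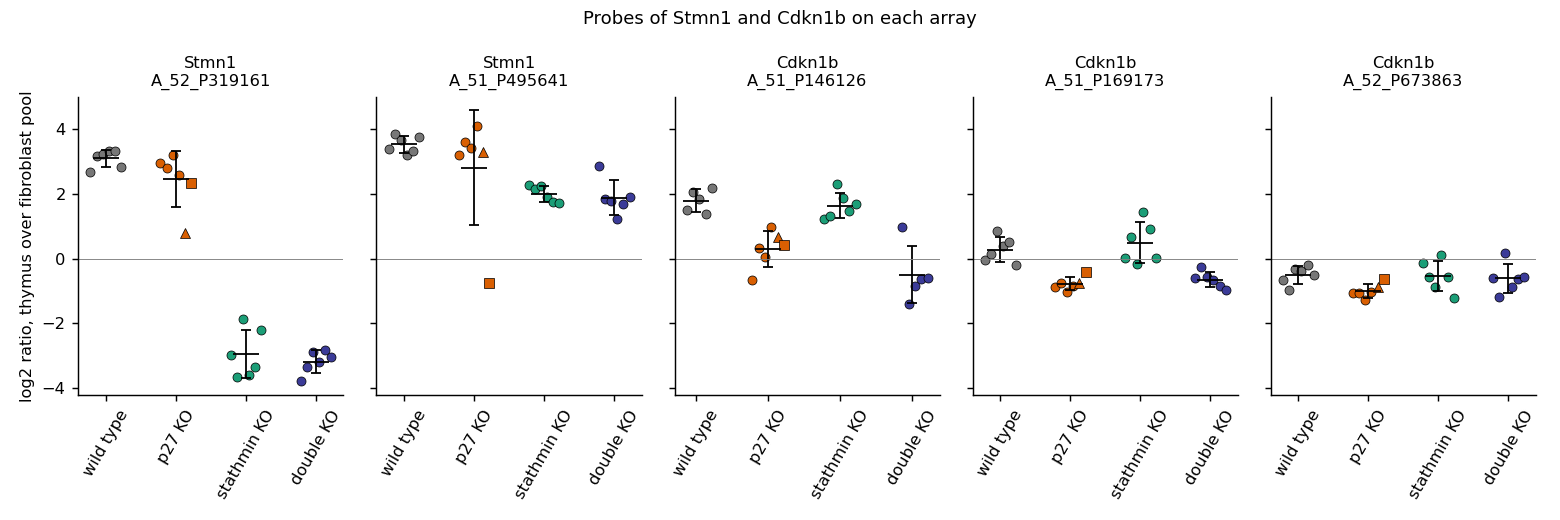
Log2 ratio of thymus over the fibroblast pool for the 2 probes of Stmn1 and the 3 of Cdkn1b on all 24 arrays, with mean and SD by genotype. The first Stmn1 probe had means of 2.45 in the p27 and -3.19 in the double knockout, and the groups overlapped at the Cdkn1b probes.

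Over all arrays 7171 of 24784 genes passed the adjusted p threshold of 0.05, which is 28.9%. Of these, 2411 (9.73% of all genes) were higher and 4760 (19.2%) lower in the double knockout. An unadjusted p below 0.05 was found for 10600 genes (42.8%). In the authors' deposited table, which follows the mean brightness of both channels, the calls were 12667 higher and 187 lower, its median change was 0.67, and the medians of all 38 gene lists below were above 0. The median change of all genes was -0.16. Without p27 knockout replicates 5 and 6, 1003 genes (4.05%) were higher and 2627 (10.6%) lower, or 14.6% in all. With brightness as covariate and 1 probe for each gene no gene passed (0 of 24784, limma), and 1732 (6.99%) had an unadjusted p below 0.05. Stmn1 probe A_52_P319161, which did not stand for the gene, passed in the test over all probes, as given above.

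The change of a gene followed how that gene varied with brightness elsewhere. Across genes it correlated by 0.781 with the slope on brightness estimated in the 12 wild type and stathmin knockout arrays alone, and by 0.851 without replicates 5 and 6. Genes are not independent replicates and all ratios share the Cy3 pool, so this is a description. Of the called genes, 96% changed in the direction of that slope, against 69.8% of the genes not called. The groups did not overlap for 1011 genes higher (4.08%) and 1964 lower (7.92%) in the double knockout. Called both with and without replicates 5 and 6 were 3056 genes, and 2012 of them had groups that did not overlap. An unadjusted p below 0.05 and the same direction with brightness as covariate left 484, of which 278 were higher and 206 lower.

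The 12 largest rises that met the rule for named genes were changes of 2.60 to 3.05, or 6.04- to 8.30-fold. In order they were Scd1, Ubxn11, Actn3, Pygm, Podxl, Actn2, Pdlim3, Gimap4, Fabp4, Tspan1, Klrc1 and Nfe2l3. Muscle genes made up 4 of the 12: Actn3 and Actn2, the alpha-actinins of the sarcomere, Pygm, muscle glycogen phosphorylase, and Pdlim3, a Z-disc protein. Without double knockout replicates 2 and 4, Actn3, Pygm, Actn2 and Pdlim3 changed by 2.03, 1.45, 1.81 and 1.93, and none of them passed (adjusted p 0.0552 to 0.246). Scd1, a fatty acid desaturase, and Fabp4, a fatty acid carrier of fat cells, are genes of adipose tissue. Gimap4 is a GTPase of lymphocytes, Klrc1 the inhibitory receptor NKG2A of natural killer cells, Podxl a surface sialomucin and Nfe2l3 a transcription factor. Of the 12, 5 had groups that did not overlap, against 4.08% of all genes. Without replicates 5 and 6, 5 still passed, against 4.05%, and Actn3, Pygm, Actn2, Pdlim3, Gimap4, Fabp4 and Tspan1 did not. The 12 were picked for their size of change in these arrays, so both counts follow partly from that choice.

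Scd1 showed the largest rise. It read lowest 0.04, median 1.83 and highest 3.52 in the p27 knockout (n = 5, replicate 4 left out as an outlier spot) and lowest 3.34, median 4.66 and highest 6.30 in the double knockout. The groups overlapped only between 3.34 and 3.52. The rise was 3.05 ± 0.63 (adjusted p 0.0043), 2.61 without replicates 5 and 6 (adjusted p 0.0267) and 1.43 with brightness. Scd1 stood at a median of 3.69 in wild type, between the groups.

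Ubxn11, whose gene lies 342 kb from Stmn1, was clearer. It read lowest -1.56, median 0.25 and highest 0.96 in the p27 knockout and lowest 2.12, median 2.75 and highest 3.28 in the double knockout. No array of one group reached the other. Its rise of 2.86 ± 0.42 (adjusted p 0.00153) was 2.26 without replicates 5 and 6 (adjusted p 0.0105) and 1.47 with brightness. Podxl read lowest -0.58, median 0.04 and highest 1.16 against lowest 2.09, median 3.16 and highest 3.71, also without overlap. Its rise was 2.76 ± 0.44 (adjusted p 0.00198) and 1.67 with brightness. Nfe2l3 read lowest -0.81, median 0.84 and highest 1.72 against lowest 2.84, median 3.26 and highest 3.74. It rose by 2.60 ± 0.41 (adjusted p 0.00198), and by 1.99 without replicates 5 and 6. Another Nfe2l3 probe, taken when Cy5 had to be above background on all 24 arrays, went the other way, at -0.79 (adjusted p 0.045). Of the 12 rises, Scd1 and Fabp4 were well above background on all 6 p27 knockout arrays, Pygm on 4 and the others on 5. All 12 were above it on the 6 double knockout arrays.

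Fabp4 lost its call in both other fits. It read lowest -1.21 in replicate 6, median 3.92 and highest 5.49 in the p27 knockout, and lowest 4.64, median 6.11 and highest 7.88 in the double knockout. Its change was 2.61 (adjusted p 0.0251) over all arrays, 1.67 without replicates 5 and 6 (adjusted p 0.0842) and 0.01 with brightness.

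Without replicates 5 and 6, the 8 largest rises with groups that did not overlap were Podxl, Mreg, Cma1, Fasn, Capsl, Ubxn11, Rbm47 and Akr1c18. They changed by 2.19 to 2.46 in those arrays and by 2.32 to 2.86 in all arrays, and all 8 also passed there. Mreg, which encodes a protein of organelle transport in pigment cells, read lowest -0.38, median 0.82 and highest 1.81 in the p27 knockout and lowest 2.99, median 3.23 and highest 3.48 in the double knockout. Its rise was 2.46 ± 0.53 in all arrays, 2.44 without replicates 5 and 6 (adjusted p 0.0218) and 2.24 with brightness, so it moved little between the 3 fits. Cma1, the chymase of mast cells, rose by 2.39 with or without replicates 5 and 6 (adjusted p 0.00422 and 0.0218) and stood 1.53 higher with brightness. Fasn, fatty acid synthase, rose by 2.46 (adjusted p 0.00579), and Rbm47, an RNA-binding protein, by 2.32 (adjusted p 0.00422).

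The 12 largest falls were changes of -4.12 to -3.60, or 12.1- to 17.4-fold. They were Mid1, Adgra2, Ott, Fam171a2, Zfp473, Krtap6-3, Zfp13, Fgf8, Phxr5, Intu, Asah3l and Pramel48. The groups did not overlap for 11 of the 12, against 7.92% of all genes. Without replicates 5 and 6 all 12 passed, against 10.6%, with changes of -3.27 to -2.39. These 12 were also picked for their size of change in these arrays, so both counts follow partly from that choice. With brightness as covariate the same 12 changed by -1.51 to -0.30, and 1 of them had an unadjusted p below 0.05. Ott and Pramel48 belong to families of near-identical copies, so their probes may read relatives.

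Mid1, a ubiquitin ligase that binds microtubules, read lowest 3.37, median 5.66 and highest 7.96 in the p27 knockout and lowest 0.86, median 1.70 and highest 2.30 in the double knockout. The highest 2 p27 knockout values were those of replicates 5 and 6, and all 6 lay above the double knockout. The fall was -4.12 ± 0.87 (adjusted p 0.0043), -3.27 without replicates 5 and 6 (adjusted p 0.0283) and -1.10 with brightness. Wild type, at a median of 1.93, was near the double knockout. Adgra2, an adhesion receptor of vessels, read lowest -1.69, median -0.37 and highest 2.72 against lowest -4.42, median -3.91 and highest -2.95, a change of -4.0 ± 0.83 (adjusted p 0.00429). Fgf8, a growth factor of the embryo, read lowest 1.62, median 3.20 and highest 7.22 against lowest 0.00, median 0.07 and highest 0.61. Its highest values were again replicates 6 and 5, at 7.22 and 5.68, and its fall of -3.68 (adjusted p 0.0043) was -2.39 without them and -0.77 with brightness. Intu, a planar polarity protein needed for cilia, fell by -3.62 (adjusted p 0.00422), and Krtap6-3, a hair keratin-associated protein, by -3.71 (adjusted p 0.00422).

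**Figure D3:**
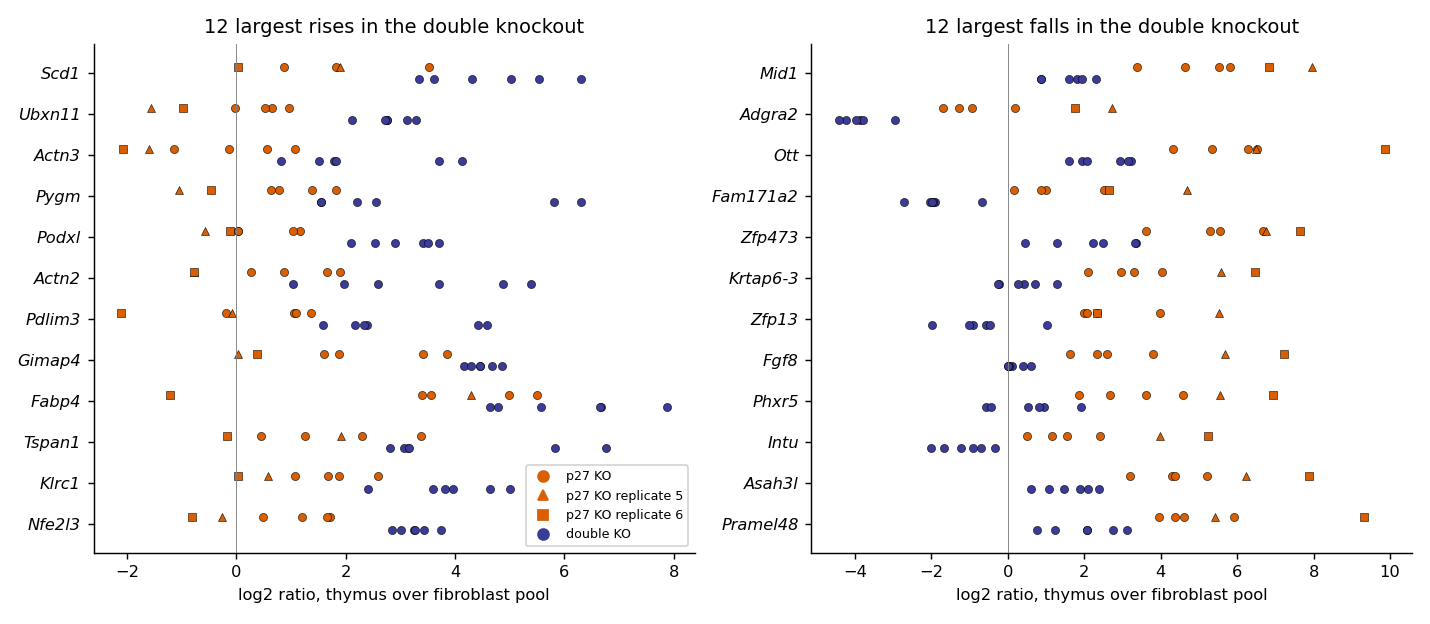
Log2 ratio of the 12 largest rises (left) and 12 largest falls (right) on each p27 knockout and double knockout array, genes by size of change. Replicate 5 (triangle) or replicate 6 (square) was the lowest p27 knockout array for all 12 rises and the highest for all 12 falls. Groups did not overlap for 5 of the rises and 11 of the falls, against 4.08% and 7.92% of all genes. The genes shown were picked from the same arrays.

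Leaving out replicates 5 and 6 brought in other falls. The 8 largest with groups that did not overlap were Cyp2c40, Mid1, Zfp13, Fgd4, Ott, Zfp473, Fam171a2 and Adgra2, at -3.27 to -2.95. Fgd4, an exchange factor for Cdc42, read 4.52 to 6.07 in the 4 remaining p27 knockout arrays and 0.94 to 3.37 in the double knockout. Replicates 5 and 6 read 0.55 and 1.41. Its change was -3.19 (adjusted p 0.0261) without these arrays and -1.81 (adjusted p 0.146) with them. Cyp2c40, of a cytochrome P450 family with near-identical members, also read lowest in replicates 5 and 6, at 2.34 and 2.54. Its change was -3.27 (adjusted p 0.0301) without them and -2.41 (adjusted p 0.0443) with them.

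The genes around Stmn1 on its chromosome were then taken in turn. Stmn1 lies on chromosome 4 from 134468320 to 134473843 in the GRCm38.p6 gene table, whose order of genes was used. Within 1 Mb of it 39 other genes were measured, and 17 of them passed the test (43.6%, against 28.9% of all genes), 11 higher and 6 lower. With brightness as covariate 13 of the 39 (33.3%) had an unadjusted p below 0.05, against 6.99% of all genes. Within 2.5 Mb the shares were 34% and 22.3% of 94 genes, and within 5 Mb 27% and 15.1% of 159 genes. Neighbouring genes are few and were looked at with earlier results known, so these shares are descriptions. Rpl11, AK032599 and Sh3bgrl3, given next, were singled out after their values were seen. Not every neighbour that passed is named.

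Rpl11, a protein of the large ribosomal subunit 1580 kb from Stmn1, had the lowest p of all genes with brightness as covariate. It read lowest 1.06, median 2.01 and highest 2.17 in the p27 knockout and lowest 0.43, median 0.64 and highest 1.34 in the double knockout. The groups overlapped only through replicate 6 of each. Its fall was -1.16 ± 0.21 (adjusted p 0.00422), -1.34 without replicates 5 and 6 (adjusted p 0.00657) and -1.50 with brightness (unadjusted p 1.09e-05, adjusted p 0.175). In the mice with p27, the same probe was at 1.90 ± 0.31 in wild type and 0.90 ± 0.36 in stathmin knockout, a difference of -1.0. A second Rpl11 probe, A_52_P566208, changed by -0.83, with overlapping groups, and did not pass (adjusted p 0.12 over all probes). Without replicates 5 and 6 this probe changed by -1.32 (adjusted p 0.0247).

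The clone AK032599, whose product the array file describes as serine/arginine repetitive matrix 1, ranked next with brightness, and the gene table does not place it. It read lowest 1.17, median 2.08 and highest 3.61 in the p27 knockout and lowest -1.89, median -1.52 and highest -0.14 in the double knockout. No values overlapped. The fall of -3.51 ± 0.40 was 11.4-fold, with an adjusted p of 0.000211, the lowest over all arrays when 1 probe stands for each gene. It was -3.20 without replicates 5 and 6 (adjusted p 0.00257) and -2.61 with brightness (adjusted p 0.175). Stathmin knockout had a mean of -1.27 and wild type 1.11 at this probe, a difference of -2.38 (adjusted p 0.117). The probe named for Srrm1 itself, a splicing factor gene 847 kb from Stmn1, changed by -1.67 (adjusted p 0.0148), but by -1.10 (adjusted p 0.0648) without replicates 5 and 6 and by -0.09 with brightness.

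Nearer to Stmn1, Sh3bgrl3, a small thioredoxin-like protein 340 kb away, read 0.84 ± 0.47 against 0.05 ± 0.30. It fell by 0.80 on the log2 scale (adjusted p 0.00955), differed by -1.14 with brightness, and the difference of stathmin knockout from wild type was -0.68. Pafah2, a lipid hydrolase 40.9 kb away, read lowest -1.79, median -1.13 and highest 0.22 against lowest -2.94, median -2.61 and highest -1.97. It was the only 1 of the 8 nearest measured genes on each side whose groups did not overlap. Its change was -1.53 ± 0.29 (adjusted p 0.00422) and -0.68 with brightness. Of those 16 genes 7 passed, the rises Cep85, Trim63, Slc30a2 and Paqr7 and the falls Zfp593, Pafah2 and Selenon. Of the 7, Slc30a2 and Pafah2 alone also passed without replicates 5 and 6. Runx3, a transcription factor of CD8 T cells 647 kb away, read lowest -1.39, median -0.67 and highest 0.53 against lowest 1.46, median 1.81 and highest 2.21. It rose by 2.41 ± 0.36 (adjusted p 0.00153), stood 1.45 higher with brightness, and was 0.45 higher in stathmin knockout than in wild type.

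**Figure D4:**
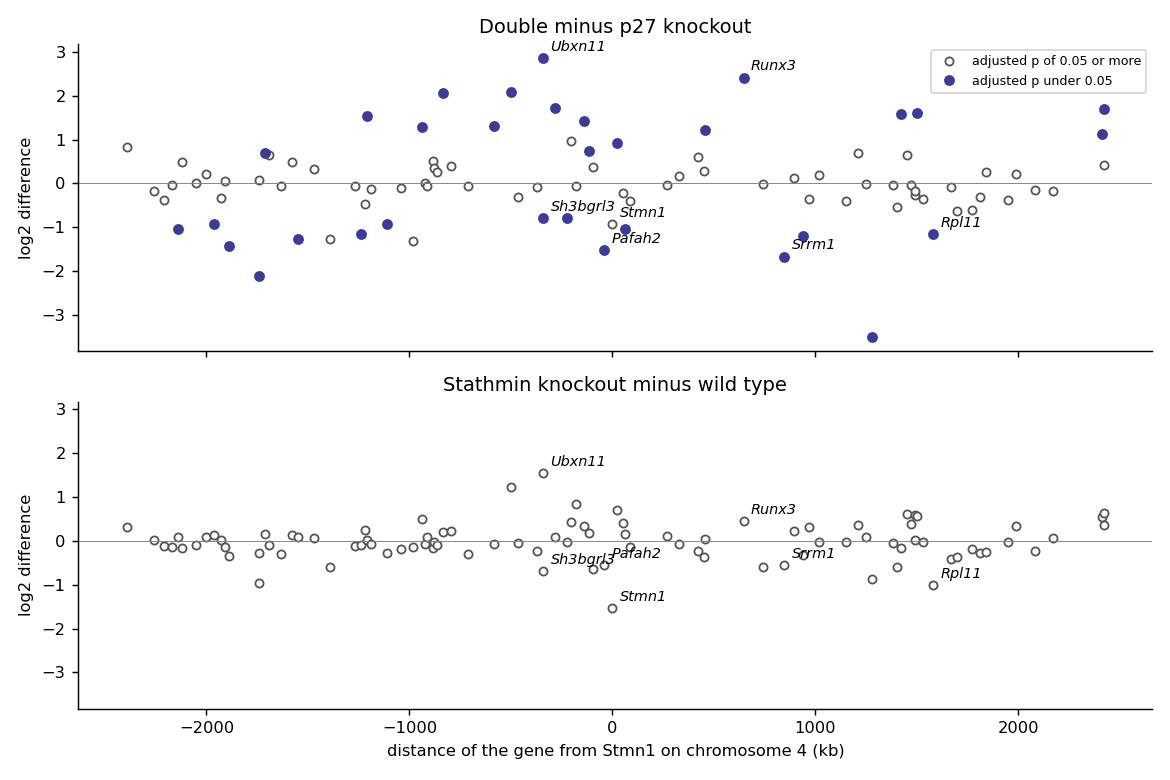
Log2 difference of each measured gene within 2500 kb of Stmn1 against its distance on chromosome 4, for the double minus the p27 knockout (top) and the stathmin knockout minus wild type (bottom). Filled points passed the adjusted p threshold of 0.05. Ubxn11 was high and Stmn1, Rpl11 and Sh3bgrl3 were low in both panels, and no gene passed in the lower one.

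Far from Stmn1, on chromosome 2, Osbpl6 was the third gene by p with brightness. It encodes an oxysterol-binding-like protein. It read lowest -2.24, median -1.50 and highest -0.78 in the p27 knockout and lowest 0.18, median 0.77 and highest 0.98 in the double knockout. The rise of 2.17 ± 0.27 (adjusted p 0.000337) was 1.89 without replicates 5 and 6 (adjusted p 0.00408) and 1.35 with brightness (adjusted p 0.196). Osbpl6 was chosen after its values were seen. It was well above background on 4 of the 6 p27 knockout arrays.

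The genes of stathmin's own pathway were next. Of the 4 stathmin genes measured, 1 passed, against 28.9% of all genes. Stmn4, a stathmin of neurons, read lowest 0.25, median 0.59 and highest 5.00 in the p27 knockout and lowest -2.86, median -2.03 and highest -1.61 in the double knockout. The value of 5.00 was replicate 5. The fall was -3.46 ± 0.78 (adjusted p 0.00532), -2.71 without replicates 5 and 6 (adjusted p 0.0249) and -1.59 with brightness. Stmn2 changed by -1.19 (adjusted p 0.0537). Of 17 tubulin genes 2 passed higher and 3 lower, against 9.73% and 19.2% of all genes. Their median change was -0.19, against -0.16 for all genes. Tuba8 rose by 1.70 (adjusted p 0.0114), and Tubb3, the neuronal beta-tubulin, fell by 1.32 (adjusted p 0.0104) and Tuba6 by 0.60 (adjusted p 0.0088). Of 39 genes of kinesins and microtubule-binding proteins 3 were higher and 4 lower, both below those shares. Their median was 0.11, or -0.01 with arrays scaled to 1 spread. Kif2a, a kinesin that takes microtubules apart, fell by 2.63 (adjusted p 0.00742), with the highest value, 5.72, in replicate 6, and differed by -0.05 with brightness. Map7, which stabilises microtubules, rose by 1.70 (adjusted p 0.0196) and Tbce, a chaperone of tubulin folding, by 0.86 (adjusted p 0.0168), and Map7, Tbce and Tubb3 did not pass without replicates 5 and 6.

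p27 acts in the cell cycle. Of 8 inhibitors of cyclin-dependent kinases 3 were lower and none higher, against 19.2% and 9.73% of all genes. Cdkn2a fell by 1.84 (adjusted p 0.00713), Cdkn2b by 1.55 (adjusted p 0.0158) and Cdkn1a, which encodes p21, by 1.07 (adjusted p 0.0234). With brightness they differed by -0.11, 0.16 and 0.16, and Cdkn2b and Cdkn1a did not pass without replicates 5 and 6. Of 24 cyclins, their kinases and genes of p27 degradation 2 were higher and 2 lower, both below the shares of all genes. Wee1, the kinase that restrains entry into mitosis, read lowest -1.92, median -0.73 and highest -0.04 in the p27 knockout and lowest 0.78, median 0.96 and highest 1.77 in the double knockout. It rose by 1.99 ± 0.39 (adjusted p 0.00422) and stood 1.07 higher with brightness. Cdk2, the main target of p27, read lowest -1.27, median -0.56 and highest 0.88 against lowest 1.40, median 1.98 and highest 2.97. It rose by 2.41 ± 0.54 (adjusted p 0.00513), and by 2.04 without replicates 5 and 6 (adjusted p 0.031). Ccne1, its cyclin partner, fell by 0.70 (adjusted p 0.0136), and differed by -0.44 (adjusted p 0.0829) without replicates 5 and 6.

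Of 15 E2F factors and pocket proteins 1 was higher and 3 lower, against 9.73% and 19.2% of all genes. E2f5 fell by 0.75 (adjusted p 0.00647), and E2f1 fell by 0.76 (adjusted p 0.0125) but did not pass without replicates 5 and 6. Tfdp2, a partner of the E2F factors, rose by 1.02 (adjusted p 0.00809). Of 40 DNA replication genes 5 were higher, near the 9.73% of all genes, and none lower, below the 19.2%. Without replicates 5 and 6 none was higher and 1 lower, against 4.05% and 10.6%. Cdc45, Pcna and Pola2 rose by 1.96, 1.08 and 1.86 (adjusted p 0.0161, 0.023 and 0.0256) and differed by 0.43, 0.03 and 0.08 with brightness. Of 40 genes of G2 and mitosis 5 were higher, again near 9.73%, and 1 lower, below 19.2%. Without replicates 5 and 6, 1 was higher and 1 lower, against 4.05% and 10.6%. The median of this list was 0.20, and -0.35 with brightness. Hmmr, a spindle protein, rose by 1.83 (adjusted p 0.00737), by 1.43 without replicates 5 and 6 (adjusted p 0.0464), and stood 1.47 higher with brightness. Anln and Ncaph rose by 1.30 and 1.25 in all arrays and did not pass without replicates 5 and 6.

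The T cell genes depended on the arrays kept. Over all arrays the 19 double-positive thymocyte markers had a median change of 0.20, with 1 higher and 1 lower. Without replicates 5 and 6 the median was -0.63 and 10 of the 19 were lower, against 10.6% of all genes, and with brightness the median was -1.0 with none called. The 29 genes of the T cell receptor complex and its signalling went from 0.12 with 1 higher and 1 lower to -0.67 with 12 lower, and to -1.04 with brightness. That brightness fit kept replicates 5 and 6. With brightness and without those replicates, the median was -0.33 for the thymocyte list and -0.39 for the receptor list. Replicate 6 had the median of the receptor list at -0.06, where the other 5 p27 knockout arrays had 5.17 to 6.10 and the double knockout 4.75 to 5.34. Ccr9, the receptor that thymocytes use to answer CCL25, read lowest 4.28, median 6.03 and highest 6.31 against lowest 4.39, median 4.62 and highest 5.16. It fell by 0.94 (adjusted p 0.0339), and by 1.13 without replicates 5 and 6 (adjusted p 0.025), but was 0.53 higher, short of the threshold, in the Cy5 channel alone. Cd53, a tetraspanin of leukocytes, rose by 2.12 (adjusted p 0.0133), but changed by 0.99 (adjusted p 0.0944) without replicates 5 and 6 and by 0.53 with brightness. Cd4 changed by 1.89 (adjusted p 0.063), with values of -0.53 and -0.22 in replicates 6 and 5. Without those arrays Cd4 changed by 0.20. Nfatc2 fell by 0.90 and Nfatc1 rose by 0.73 (adjusted p 0.00735 and 0.0383), both transcription factors downstream of the receptor, and Nfatc1 did not pass without replicates 5 and 6. Egr2 changed by -0.61 (adjusted p 0.0528).

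Notch signalling commits progenitors to the T lineage. Of 20 genes of early thymocytes and Notch 5 were higher and 1 lower, against 9.73% and 19.2% of all genes. Without replicates 5 and 6, 4 were higher and 1 lower, against 4.05% and 10.6%. Hes1, a direct Notch target, read lowest -2.34, median -1.69 and highest -1.22 in the p27 knockout and lowest -0.58, median 0.08 and highest 0.84 in the double knockout. It rose by 1.82 ± 0.39 (adjusted p 0.0043), by 1.65 without replicates 5 and 6 (adjusted p 0.0245), and stood 1.23 higher with brightness. Heyl and Nrarp, also Notch targets, rose by 1.62 and 1.94 (adjusted p 0.00424 and 0.0043) and stood 0.45 and 0.50 higher with brightness. The median of the list was 0.30, and 0.01 without replicates 5 and 6.

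Of 19 genes of mature and regulatory T cells 4 were higher and none lower, against 9.73% and 19.2% of all genes. Without replicates 5 and 6, 2 were higher and 2 lower, against 4.05% and 10.6%. The median change of the list was 0.42, -0.05 without these arrays and -0.69 with brightness. Ctla4, the inhibitory receptor of regulatory T cells, read lowest 0.09, median 0.77 and highest 1.23 against lowest 2.49, median 2.78 and highest 3.02, with no overlap. It rose by 2.05 ± 0.43 (adjusted p 0.0043), by 1.83 without replicates 5 and 6 (adjusted p 0.0248), and stood 1.09 higher with brightness. H2-Q2 rose by 1.44 (adjusted p 0.01), and did not pass without replicates 5 and 6. Of 7 GIMAP genes 3 were higher and none lower, against 9.73% and 19.2% of all genes. Gimap4, Gimap7 and Gimap3 rose by 2.62, 1.93 and 1.82. Without replicates 5 and 6 none of these 3 passed, and with brightness Gimap7 and Gimap3 differed by -0.15 and -0.01.

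Natural killer receptors lie in a cluster on chromosome 6. Of 26 of its genes 9 were higher and none lower, against 9.73% and 19.2% of all genes. Without replicates 5 and 6, 6 were higher, against 4.05%. The median change was 0.63, 0.61 without these arrays and 0.45 with brightness, where none was called. The median of the list by array was lowest 0.39, median 0.70 and highest 1.05 in the p27 knockout and lowest 0.74, median 1.56 and highest 1.95 in the double knockout, and 1.10 to 2.00 in wild type. Every p27 knockout array lay below every wild type array, and the double knockout overlapped both. Klrc1 rose by 2.60 ± 0.49 (adjusted p 0.00422), Klra12 by 1.47 and Klra6 by 1.53. Probes of the Klra family may read its near-identical members. Of 17 cytotoxic effector genes 6 were higher and 1 lower, against 9.73% and 19.2% of all genes. There were 3 higher and none lower without replicates 5 and 6, and the median of 0.79 was -0.22 with brightness. Cd160, a receptor of natural killer and memory T cells, read lowest -0.23, median 0.08 and highest 0.57 against lowest 1.26, median 1.69 and highest 2.16, and rose by 1.65 with or without replicates 5 and 6 (adjusted p 0.00422 and 0.0204). Gzmb, granzyme B, rose by 1.82 and Fasl, the ligand of the death receptor Fas, by 1.19, and both passed without replicates 5 and 6.

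Interferon-stimulated genes gave 8 higher and 2 lower of 34, against 9.73% and 19.2% of all genes, with a median of 0.28. They gave 5 and 1 with a median of 0.17 without replicates 5 and 6, and the median was 0.08 with brightness. Isg20, an RNA exonuclease, rose by 1.87, Irf7, a factor that drives interferon genes, by 1.93 and Oas3 by 1.15, and all 3 passed without replicates 5 and 6. Of 17 genes of MHC classes I and II 4 were higher and none lower, against the same 9.73% and 19.2%. Their median change was 1.06 over all arrays, 0.21 without replicates 5 and 6, where 1 was higher, and -0.55 with brightness. B2m, the light chain of class I, rose by 1.68 (adjusted p 0.00751) and H2-D1 by 1.40 (adjusted p 0.0124). Tap1, the peptide transporter, rose by 2.32 (adjusted p 0.0164) and stood 0.13 higher with brightness. H2-D1 and Tap1 did not pass without replicates 5 and 6.

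In the epithelium, of 14 cortical genes 4 were higher and none lower, against 9.73% and 19.2% of all genes. Without replicates 5 and 6, 4 were higher and 1 lower, against 4.05% and 10.6%. Foxn1, the master factor of thymic epithelium, read lowest 0.51, median 1.46 and highest 1.87 in the p27 knockout and lowest 2.32, median 2.63 and highest 3.41 in the double knockout. No values overlapped, and wild type had a median of 1.73. Foxn1 rose by 1.36 ± 0.27 (adjusted p 0.00422), by 1.28 without replicates 5 and 6 (adjusted p 0.0204), and stood 0.77 higher with brightness. Dll4, the Notch ligand of cortical epithelium, rose by 1.24 (adjusted p 0.0071) and Enpep, an aminopeptidase of cortical epithelium, by 2.20 (adjusted p 0.0224). The median of the list was 0.92, -0.03 without replicates 5 and 6. Of 21 medullary genes and self-antigens 7 were higher and 1 lower, and 4 and none without replicates 5 and 6, against the same shares. They were led by Trpm5, a cation channel of tuft cells, Csn2, beta-casein, and Fezf2, a driver of self-antigen expression. Trpm5, Csn2 and Fezf2 rose by 1.79, 2.40 and 1.20, and Fezf2 did not pass without replicates 5 and 6. In bulk tissue, fewer cells of a type and less RNA per cell cannot be told apart.

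Genes of fibroblasts, the cells of the Cy3 pool, were low in every thymus and lower in the double knockout. Of 30 fibroblast and mesenchymal genes 18 were lower and 1 higher, and of 20 collagens 14 were lower, against 19.2% of all genes. The median changes were -1.03 and -1.40. Without replicates 5 and 6 they were -0.53 and -0.73 with 1 gene lower in each list, and with brightness 0.28 and 0.23. By array, the fibroblast list stood at -3.08 to -0.64 in the p27 knockout, at -3.56 to -2.90 in the double knockout and at -3.69 to -2.38 in wild type. Replicate 6, at -0.64, and replicate 5, at -1.75, were the highest. Both medians were above 0 in the authors' deposited table. Col7a1 fell by 1.99 (adjusted p 0.00631), Col8a1 by 1.80, Col11a1 by 2.15, Cspg2 (versican) by 1.97 and Mfap4, of elastic fibres, by 1.77. Col8a1, Col11a1 and Mfap4 did not pass without replicates 5 and 6. Pi16, a protease inhibitor of fibroblasts, rose by 1.67 (adjusted p 0.00518).

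Fat and muscle genes followed. Of 24 adipocyte genes 12 were higher and none lower, against 9.73% and 19.2% of all genes. Without replicates 5 and 6, 5 were higher, against 4.05%. The median change was 1.21, 0.98 without these arrays and 0.20 with brightness. By array the list stood at -0.11 to 2.90 in the p27 knockout, 2.18 to 3.75 in the double knockout and 1.88 to 3.45 in wild type, so the groups overlapped. Acaca, which makes malonyl-CoA for fatty acids, rose by 2.00 (adjusted p 0.00424), and Elovl3, a fatty acid elongase of brown fat, by 1.95 (adjusted p 0.00735), but was well above background on only 2 of the 6 p27 knockout arrays. The adipocyte list was also 1.20 higher in stathmin knockout than in wild type. Of 30 sarcomere genes 4 were higher, near the 9.73% of all genes, and 1 lower, below the 19.2%, with a median of 1.26. There was 1 higher and 1 lower without p27 knockout replicates 5 and 6, and the median was 0.34 with brightness. Without double knockout replicates 2 and 4 the median was 0.01, with none higher and 1 lower. Actn3 read lowest -2.08, median -0.64 and highest 1.08 against lowest 0.81, median 1.80 and highest 4.12, and rose by 2.84 (adjusted p 0.00765), with overlap between the groups. Tnni1, a slow troponin, rose by 0.99 but did not pass without double knockout replicates 2 and 4, while Ryr1, the calcium channel of muscle, fell by 2.44 (adjusted p 0.00949). The mean of all Ryr1 probes was 0.39 higher. The part that fat and muscle attached to the thymus played in these values was not tested.

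Metabolic and stress genes were counted in the same way. Of 32 genes of oxidative phosphorylation 7 were higher and none lower, against 9.73% and 19.2% of all genes. Sdha and Atp5a1 rose by 1.37 and 0.67, and 2 genes of the list were higher without replicates 5 and 6. Sdha then did not pass, and the median of the list, 0.42, was -0.01 with brightness. Of 21 immediate early genes none was higher and 6 lower, against 9.73% and 19.2% of all genes. Nr4a1, induced by T cell receptor signals, read lowest -1.22, median -0.82 and highest -0.42 against lowest -2.22, median -1.92 and highest -1.46. It fell by 1.05 ± 0.22 (adjusted p 0.0043), and by 0.89 without replicates 5 and 6 (adjusted p 0.0248). Junb fell by 1.16 and Ccn1 by 1.60, and neither passed without these arrays. Of 15 heat shock chaperones 3 were higher and none lower, against 9.73% and 19.2% of all genes. Hspb8, Hspa8 and Hspa1a rose by 1.68, 1.21 and 1.31, and only Hspb8 passed without replicates 5 and 6. Of 35 ribosomal protein genes 3 were higher and 2 lower, both below those shares. Among them Rpl4 rose by 1.68 but did not pass without these arrays, and Rps3 fell by 0.61.

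Markers of other cells that a dissection could include were also counted. The shares of all genes beside these counts were 9.73% higher and 19.2% lower, or 4.05% and 10.6% without replicates 5 and 6. Of 23 macrophage and myeloid genes 3 were higher and 1 lower, and 2 and 2 without those replicates. The median of the list was 0.42, and -0.08 with brightness. Spi1, C1qa and C1qb rose by 2.15, 1.70 and 1.12, and C1qb did not pass without replicates 5 and 6. Of 17 dendritic cell genes 4 were higher and 1 lower, namely Ccl22 (1.82, n = 5 in the p27 knockout) and Clec9a (1.48) among the rises and Xcr1, which fell by 1.99. Of 18 endothelial genes 3 were higher, Tek, Sox17 and Pecam1, by 1.67, 1.51 and 1.56, against 9.73% of all genes. Only Tek passed without replicates 5 and 6, with Sox17 at 1.05 (adjusted p 0.0541) and Pecam1 at 0.51 (adjusted p 0.335), and the median of the list was -0.23 with brightness. Of 11 parathyroid and thyroid genes 2 were lower, near the 19.2% of all genes. Duox2, of thyroid hormone synthesis, fell by 1.82 (adjusted p 0.00684) and Gcm2, the factor of the parathyroid, by 1.81 (adjusted p 0.0227), with 5.43 in replicate 5 against 0.25 to 2.17 in the other p27 knockout arrays. Their part in the other changes was not tested. B and plasma cell genes gave 2 higher of 23, erythroid genes 1 of 12, lymph node genes 1 of 14, BCL2 family genes 2 of 14 and histone genes 1 of 19, with none lower in these 5 lists. Without replicates 5 and 6 the B and plasma cell list gave none higher and 1 lower, and its median of 0.47 was -0.59 with brightness. Brown fat genes gave 4 higher and 2 lower of 15, and 1 and none without replicates 5 and 6, and p53 targets 1 and 3 of 20.

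**Figure D5:**
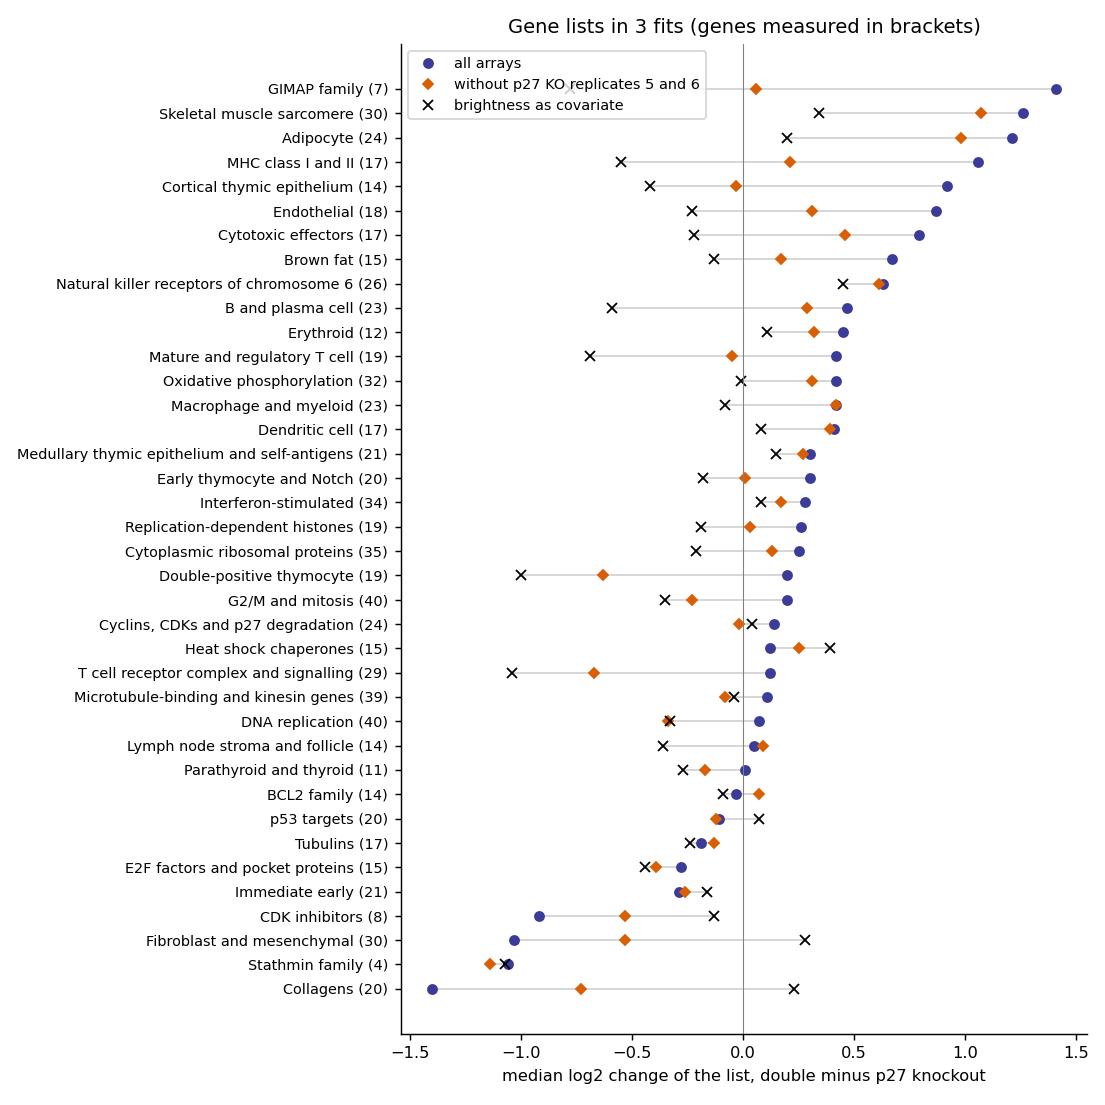
Median log2 change of each of 38 gene lists, double minus p27 knockout, in 3 fits. Circles are all arrays, diamonds leave out p27 knockout replicates 5 and 6, and crosses have brightness as covariate. The median was above 0 for 29 lists in all arrays, 21 without these replicates and 12 with brightness.

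The same deletion in mice with p27 shared no array with this comparison. Stathmin knockout against wild type had no gene past the threshold (0 of 24784, limma), with 674 (2.72%) at an unadjusted p below 0.05. In this fit 1 probe stood for each gene, and the spread was shared with the p27 knockout arrays, replicates 5 and 6 among them. The probe that stood for Stmn1 read 3.54 ± 0.26 in wild type and 2.01 ± 0.25 in stathmin knockout (SD). The other Stmn1 probe read 3.1 ± 0.28 and -2.95 ± 0.75. Across genes the 2 stathmin effects correlated by 0.522, or 0.464 with brightness as covariate, and 63.5% of genes had the same sign. Both effects were measured against 1 Cy3 pool and on the same slides, and genes are not independent. The brightness fit also corrected both effects with 1 shared slope for each gene, and 51.4% of the spread behind it lay in the p27 knockout. The group without stathmin was on average the brighter in both comparisons, so an error in that slope moves both effects the same way. The 0.464 is therefore not independent agreement. All 12 of the largest rises and all 12 of the largest falls had the same sign in stathmin knockout against wild type, at 0.23 to 2.09 and at -1.36 to -0.50. Stathmin knockout arrays were brighter than wild type on average, at 239 against 191, and with brightness as covariate 10 of the 12 rises (-0.20 to 1.72) and 10 of the 12 falls (-0.71 to 0.26) kept that sign. Pdlim3, Gimap4, Fgf8 and Asah3l turned. The counts with brightness rest on the same shared slope, so they are not independent agreement either. The difference between both effects was tested and no gene passed (0 of 24784), with 4436 (17.9%) at an unadjusted p below 0.05, and 456 (1.84%) with brightness as covariate.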

How the data were processed

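The authors hybridised 24 arrays, 1 mouse each. The deposited Cy5 and Cy3 intensities were, per the file headers, made with version 9.1.3.1 of Feature Extraction (Agilent), whose protocol name states no background subtraction. The authors' deposited table holds log2 values. It follows the mean log2 intensity of both channels, and no source used here gives its normalization. The deposited log10 ratios of the same scanner software, per the file headers, served as an alternative.

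The mean and background intensities were corrected with normexp (offset 50) and loess-normalized within arrays in limma 3.58.1 (R 4.3.3). Control and outlier spots (a mean of 68 per array) were left out and spots of a probe averaged. Of 41174 gene probes, 22951 took their name from the GRCm38.p6 gene table and 18223 kept the name in the files. A probe needed Cy5 well above background on 6 of 24 arrays, which left 35185, and the brightest stood for each of 24784 genes. Genes with several probes numbered 7397. limma was fitted by genotype to all 24 arrays, with Benjamini-Hochberg adjustment over all genes and a threshold of 0.05. In simulated data with 50 genes changed per effect, 46 to 50 were recovered. Named genes were Stmn1 and Cdkn1b, the 12 largest rises and falls that passed with all 6 arrays of a group on 1 side of the other's mean, the 8 largest each way without p27 knockout replicates 5 and 6 whose groups did not overlap, 8 neighbours on each side of Stmn1, and the 3 lowest p of each list. Members and lists were chosen with earlier results of these data known. Rpl11, AK032599, Sh3bgrl3 and Osbpl6 were singled out after their values were seen. Each of 6 slides held 1 array per genotype at a fixed position, and these cannot be told apart. Alternatives were array weights, slide and replicate blocks, other corrections, scalings, filters and probe rules, and each array left out. A result on 1 gene is not reported here.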

Additional observations from a re-analysis of the deposited data

Results flagged for a closer look

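Values that stood apart from the rest of their group by Dixon's criterion were listed for 132 genes, a second Stmn1 probe and array brightness. The criterion was that for 6 samples, or for 5 where 1 spot was left out. There were 25 among 268 groups of 6 arrays, and chance alone flags about 1 in 20 groups.

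Replicate 6 of the p27 knockout, the dimmest array, gave 10. It was low for Stmn1 (-0.76), Fabp4 (-1.21), Rpl11 (1.06), Pcna (-0.88), Dll4 (0.24), Enpep (-3.14), Tfdp2 (-1.85) and Atp5a1 (0.61). It was high for Pramel48 (9.31) and Rps3 (2.27). Replicate 5 of the p27 knockout gave 3, high for Stmn4 (5.00) and Gcm2 (5.43) and low for Stmn1 probe A_52_P319161 (0.79).

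Replicate 1 of the double knockout gave 8. It was high for Wee1 (1.77), Hmmr (1.33), Tap1 (3.77), Pola2 (2.91) and Ncaph (2.47), and low for Nfatc2 (-0.87), Ccn1 (-4.77) and Col8a1 (-6.48). The other 4 double knockout values were Rpl4 in replicate 2 (0.42), Sdha in replicate 4 (1.38), Stmn4 in replicate 5 (-2.86) and Rpl11 in replicate 6 (1.34).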

How the results depend on the processing

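The fall of Stmn1 probe A_52_P319161 passed in every fit that was run on it, from -6.08 to -1.42. The counts of genes higher and lower, 2411 and 4760, were 1003 and 2627 without p27 knockout replicates 5 and 6, 1424 and 2117 from the 12 arrays alone, 0 and 0 with brightness as covariate, and 0 and 1 with both changes (an alternative chosen after seeing the data, as was the next). With slide as a block and without those replicates 1358 genes were higher. Without double knockout replicates 2 and 4, also chosen after seeing the data, the counts were 1258 and 2651, and Cdkn1b was -1.18 (adjusted p 0.0294). Slide and array weights gave 3633 and 7520, scaling between arrays 3171 lower, a filter on all 24 arrays 1343 and 2894, and every probe 4675 higher and 5897 lower, or 44.2% higher against 33.6%. The authors' deposited table gave 12667 and 187, or 98.5% higher, with Stmn1 at 0.44 and Cdkn1b at 0.76. Leaving out 1 array at a time gave 1687 to 2835 higher and 3635 to 5601 lower, Stmn1 from -1.64 (without p27 knockout replicate 6, adjusted p 0.00193) to -0.67, and Cdkn1b from -1.17 (without double knockout replicate 2, adjusted p 0.0126) to -0.57. Without p27 knockout replicate 1 Cdkn1b also passed, at -0.99 (adjusted p 0.0287). Stmn1 passed at -1.70 without replicates 5 and 6, -1.72 with array weights, -1.69 with slide and weights, -3.28 as the mean of its probes, -1.99 with brightness and -1.76 with slide, both without replicates 5 and 6. The causes were not tested.

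With the replicate number as a block, 2367 genes were higher and 4690 lower, Stmn1 was -0.93 (adjusted p 0.169) and Cdkn1b -0.94 (adjusted p 0.121). Deviations of same-numbered samples correlated by -0.185 to 0.046, so no shared deviation was seen, which cannot show whether the numbers paired the mice. Deviations of samples on the same slide correlated by -0.024 to 0.498 (median 0.156, against -0.0151 over all 36 pairs). With slide as a block, 2692 genes were higher and 5283 lower. The test of the difference between the stathmin effects called 0 genes in all 6 fits, the replicate block among them.

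Genes whose sign turned with brightness were Selenon (0.08), Cdkn1a (0.16), Cd4 (-0.10), Mfap4 (0.01), Cdkn2b (0.16), Gimap7 (-0.15), Gimap3 (-0.01), Ccn1 (0.23), Col8a1 (0.08) and Col11a1 (0.01). Without replicates 5 and 6 as well, they were Cdkn1a (0.08), Cdkn2b (0.03), Gimap7 (-0.14), Gimap3 (-0.14), Ccn1 (0.15), Col8a1 (0.03) and C1qb (-0.04). Ccr9 turned in Cy5 alone (0.53) and Ryr1 as the mean of its probes (0.39). Nfe2l3 turned with the filter on all arrays, which took another probe (-0.79), and passed there as a fall (adjusted p 0.045). In the authors' deposited table the falls turned for Pafah2 (0.41), Zfp593 (0.75), Selenon (0.62), Rpl11 (0.19), Sh3bgrl3 (0.44), Tubb3 (0.55), Cdkn2a (0.26), Cdkn1a (0.53), Ccne1 (0.68), E2f1 (0.92), Ccr9 (1.98), Col7a1 (0.12), Mfap4 (0.21), Nr4a1 (0.54), Junb (0.52), Stmn2 (0.34), Tuba6 (0.51), Cdkn2b (0.28), E2f5 (0.59), Egr2 (0.84), Ccn1 (0.34), Cspg2 (0.21), Col8a1 (0.14), Col11a1 (0), Rps3 (0.05) and Srrm1 (0.09). For 5200 genes with 2 probes, the changes of both had the same sign in 62.1%.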
